A study of Mus musculus with 9 samples.

Results

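Amino acid transporter genes at the surface of activated T cells were followed over 9 Affymetrix arrays of mouse CD4 T cells: Slc7a5, Slc3a2, Slc7a1, Slc7a6, Slc1a5, Slc1a4, Slc38a1, Slc38a2 and Slc7a11. They were chosen by name, all 9 were found among the 19937 genes measured, and they are represented by 10 of 34760 probe sets, with 2 for Slc38a1. Chronic Th2 cells (CD4+ CD69+ ST2+) were sorted at day 104 from lungs of mice that had inhaled a 1% ovalbumin aerosol for 12 weeks. Acute Th2 cells, sorted by the same markers, came from the lung at day 29, after aerosol on 3 days in a row. Both groups of mice had been sensitised by injections of 10 µg ovalbumin with 1.5 mg aluminium hydroxide. Naive cells were sorted as such by surface markers, CD4+ and CD44- among them, from day 29 spleens, taken from mice given sham treatment. Per the labels' protocols lungs were digested with collagenase D and DNase I, and the sorted cells then spent 8 h with antibodies to CD3 and CD28. Every level below is thus, by these protocols, one of stimulated cells. Each group has 3 arrays, called biological replicates in the titles, which do not say whether they are separate animals, so the p-values measure the spread between these samples, part of which may be technical. The sources used here do not give mouse strain, age or sex, and Il1rl1, the gene of ST2, was not analysed here. Tissue and cell state cannot be told apart in the comparisons with naive cells, nor day and stage of disease between both Th2 groups. In sorted populations like these, fewer cells that carry a transcript and less of it per cell cannot be told apart.

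A T cell that has been stimulated through its receptor grows before it divides, and its amino acid uptake rises through transporters of the SLC7, SLC1 and SLC38 families. Slc7a5 encodes LAT1, which pairs with CD98 (the heavy chain encoded by Slc3a2) to exchange leucine and other large neutral amino acids, and leucine inside the cell feeds the kinase complex mTORC1. CD98 also pairs with y+LAT2 (Slc7a6), an exchanger of arginine for neutral amino acids, and with xCT (Slc7a11), which takes up cystine in exchange for glutamate. CAT1 (Slc7a1) carries arginine and lysine. ASCT2 (Slc1a5) carries glutamine, ASCT1 (Slc1a4) serine, alanine and cysteine, and SNAT1 and SNAT2 (Slc38a1 and Slc38a2) carry glutamine and other small neutral amino acids together with sodium. Several of these genes are known targets of ATF4, the transcription factor of the amino acid response, of MYC or, for Slc7a11, of NRF2.

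The labels were checked against marker genes, and arrays that stood apart from their group were looked for. Il5, a type 2 cytokine gene, had levels of 12.43, 12.31 and 12.54 in chronic Th2 cells and 12.72, 12.59 and 12.64 in acute Th2 cells, against 5.01, 5.15 and 5.31 in naive cells. Levels are log2 intensities throughout. Of 10 genes of the Th2 list, 9 passed as higher in either Th2 group. Cd3e, a subunit of the T cell receptor complex, lay between 11.41 and 12.22 on all 9 arrays. Naive replicate 1 differed from the other naive arrays in genes that stimulation induces. Il2 had a level of 5.07 on it, and a mean of 11.30 in naive replicates 2 and 3. Irf4, a transcription factor induced by receptor signals, had 6.87 on it, against a mean of 11.72. Chronic Th2 replicate 3 also differed from its group. The levels of 29 stimulation-induced genes summed to 278.6, 280.2 and 294.3 in chronic Th2 replicates 1, 2 and 3, and Il2 had levels of 9.95, 8.95 and 11.70 there. Hmox1, a stress-induced gene, had 8.42, 8.18 and 9.94 on the same arrays. Background was taken as the 95th percentile of 1015 olfactory receptor genes, a log2 level of 6.53, and the median of these genes was 5.67, 5.51 and 5.15 in chronic Th2 replicates 1, 2 and 3, with 4.94 to 5.21 on the acute Th2 and naive arrays.

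All 9 transporter genes were lower in naive replicate 1 than in the mean of naive replicates 2 and 3. The log2 difference ran from -0.71 for Slc38a2 to -4.0 for Slc7a11. Slc7a5 was 7.59-fold lower on that array, Slc1a4 5.32-fold, Slc1a5 5.17-fold and Slc7a1 4.34-fold. Of all genes, dim ones included, 11.3% were lower there by more than 0.5 on the log2 scale, as all 9 members were. A share of 7.46% were lower by more than Slc38a2, the member that differed least. Shares among genes above background, where 8 of the 9 members lie, were not computed. Naive replicates 2 and 3 differed from each other by at most 0.21 in any of the 9. Many stimulation-induced genes were low on the same array. Log2 differences were -1.98 for Myc, -2.84 for Il2ra, -3.0 for Egr2 and -2.26 for the transferrin receptor gene Tfrc. Others of that list were higher on it, the immediate early genes Junb by 1.92, Fos by 1.89 and Fosb by 1.34. Cd44 and Ier3, also of the list, were 0.10 and 0.08 higher, and Cd3e was 0.62 higher. The part of stimulation in the transporter levels of this array was not tested. Each comparison of a transporter with naive cells is therefore given with all 9 arrays and without naive replicate 1, which leaves 2 naive arrays. That array was set apart with earlier results of these data known, and the members themselves are low on it. The p-values without naive replicate 1 are thus conditional on this choice.

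**Figure D1:**
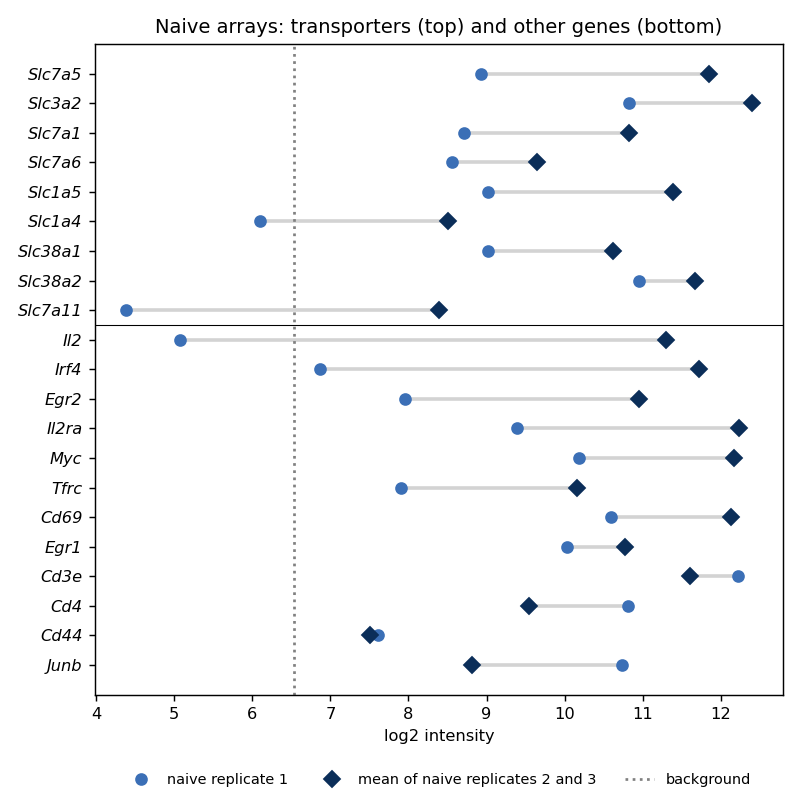
Log2 intensity (horizontal axis) of the 9 transporter genes and of 12 stimulation-induced or T cell genes in naive replicate 1 (circles) and as the mean of naive replicates 2 and 3 (diamonds), with the background level of 6.53 dotted. All 9 transporters lie lower in replicate 1, by -0.71 for Slc38a2 to -4.0 for Slc7a11, and Il2 is low with them while Cd3e, Cd4, Cd44 and Junb are not.

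Promoter sequence was at hand for 6 of the 9 genes, with 8 promoters in all, as Slc7a1 and Slc7a6 have 2 each. Slc7a5, Slc1a5 and Slc38a1 are not among them. The sequences below are the 250 bases before the transcription start in RefSeq's mouse annotation (build GRCm38.p6), written in the direction of the gene, for the members that passed a test in some comparison below and had a promoter. For Slc7a1 and Slc7a6, the promoter with a motif is shown. Motifs were searched on both strands, and capitals mark the matches. The core of the ATF4 element, TGATGNAA, occurred in 1 of the 8 promoters, that of Slc7a11, and in 3.452% of all 32851 promoters. Slc7a11 held it 2 times, as TGATGCAA from -66 to -59 and, on the other strand, as TTGCATCA from -47 to -40. The antioxidant response element to which NRF2 binds, TGACNNNGC, occurred in 3 of 8 (1 promoter each of Slc7a1, Slc7a6 and Slc38a2) and in 10.161% of all. An AP-1 site, TGANTCA, was found in 1 of 8 (Slc7a1) and in 6.749% of all. The E-box CACGTG, to which MYC binds, was in 0 of 8 and in 6.021% of all. A match is a string of letters in this window and not a site of binding.
Slc7a1 promoter, chr5:148399905-148400154, minus strand: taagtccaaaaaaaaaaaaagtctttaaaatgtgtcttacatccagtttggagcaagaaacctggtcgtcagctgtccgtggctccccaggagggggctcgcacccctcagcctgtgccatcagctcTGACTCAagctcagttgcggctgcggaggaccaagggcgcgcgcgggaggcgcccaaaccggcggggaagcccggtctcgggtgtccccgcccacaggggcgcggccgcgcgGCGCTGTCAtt
Slc7a6 promoter, chr8:106168671-106168920, plus strand: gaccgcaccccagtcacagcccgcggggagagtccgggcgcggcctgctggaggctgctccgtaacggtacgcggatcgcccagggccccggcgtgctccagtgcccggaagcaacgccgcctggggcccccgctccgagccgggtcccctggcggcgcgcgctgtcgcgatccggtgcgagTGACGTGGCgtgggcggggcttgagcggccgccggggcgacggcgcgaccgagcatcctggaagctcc
Slc1a4 promoter, chr11:20332714-20332963, minus strand: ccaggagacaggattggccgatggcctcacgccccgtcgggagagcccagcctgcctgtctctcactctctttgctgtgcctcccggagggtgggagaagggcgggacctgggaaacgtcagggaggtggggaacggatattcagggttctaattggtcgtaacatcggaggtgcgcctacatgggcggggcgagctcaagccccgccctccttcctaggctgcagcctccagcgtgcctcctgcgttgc
Slc7a11 promoter, chr3:50443614-50443863, minus strand: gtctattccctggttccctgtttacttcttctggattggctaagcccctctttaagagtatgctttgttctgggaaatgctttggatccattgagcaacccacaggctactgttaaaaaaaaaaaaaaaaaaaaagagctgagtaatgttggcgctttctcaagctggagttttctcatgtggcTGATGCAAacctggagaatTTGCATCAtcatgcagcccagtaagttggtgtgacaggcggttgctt

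Averaged over the 9 arrays, 8 of 9 members lay above background, all but Slc7a11, and 0 of 9 passed the test in any comparison with all arrays. In acute Th2 against naive cells 0 of 9 were called by limma at an adjusted p under 0.05, with 1 at an unadjusted p under 0.05, where 5.87% of all genes were called. Against naive cells 0 of 9 were called in chronic Th2 cells too, with 0 at an unadjusted p under 0.05, where 7.88% of all genes were called. Leaving naive replicate 1 out changed these counts. Then 1 member was higher (Slc1a4) and 2 were lower (Slc7a6 and Slc7a11) in acute Th2 cells, where 6.05% of all genes were called higher and 6.11% lower. In chronic Th2 cells 0 were higher and 4 were lower (Slc7a1, Slc7a6, Slc1a5 and Slc7a11), where 5.84% were called higher and 11.4% lower. The median log2 difference of the 9 from naive cells was 0.41 in acute and 0.28 in chronic Th2 cells with all arrays, and -0.04 and -0.24 without naive replicate 1. The medians over all genes were -0.03 and 0.04 with all arrays, and -0.04 and 0.04 without that array. Over the 9815 genes above background they were -0.04 and -0.12 with all arrays, and -0.06 and -0.12 without it. Weighting all 9 arrays by their residual spread called 2 of 9 in acute Th2 cells, where 20.2% of all genes were called, and 2 in chronic Th2 cells, where 23.4% were. Without both naive replicate 1 and chronic Th2 replicate 3 the counts were 3, where 13.2% were called, and 4, where 23.4% were. The standard error of a member's difference fell to between 0.10 and 0.19 without that array, against 0.20 to 0.92 with it.

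**Figure D2:**
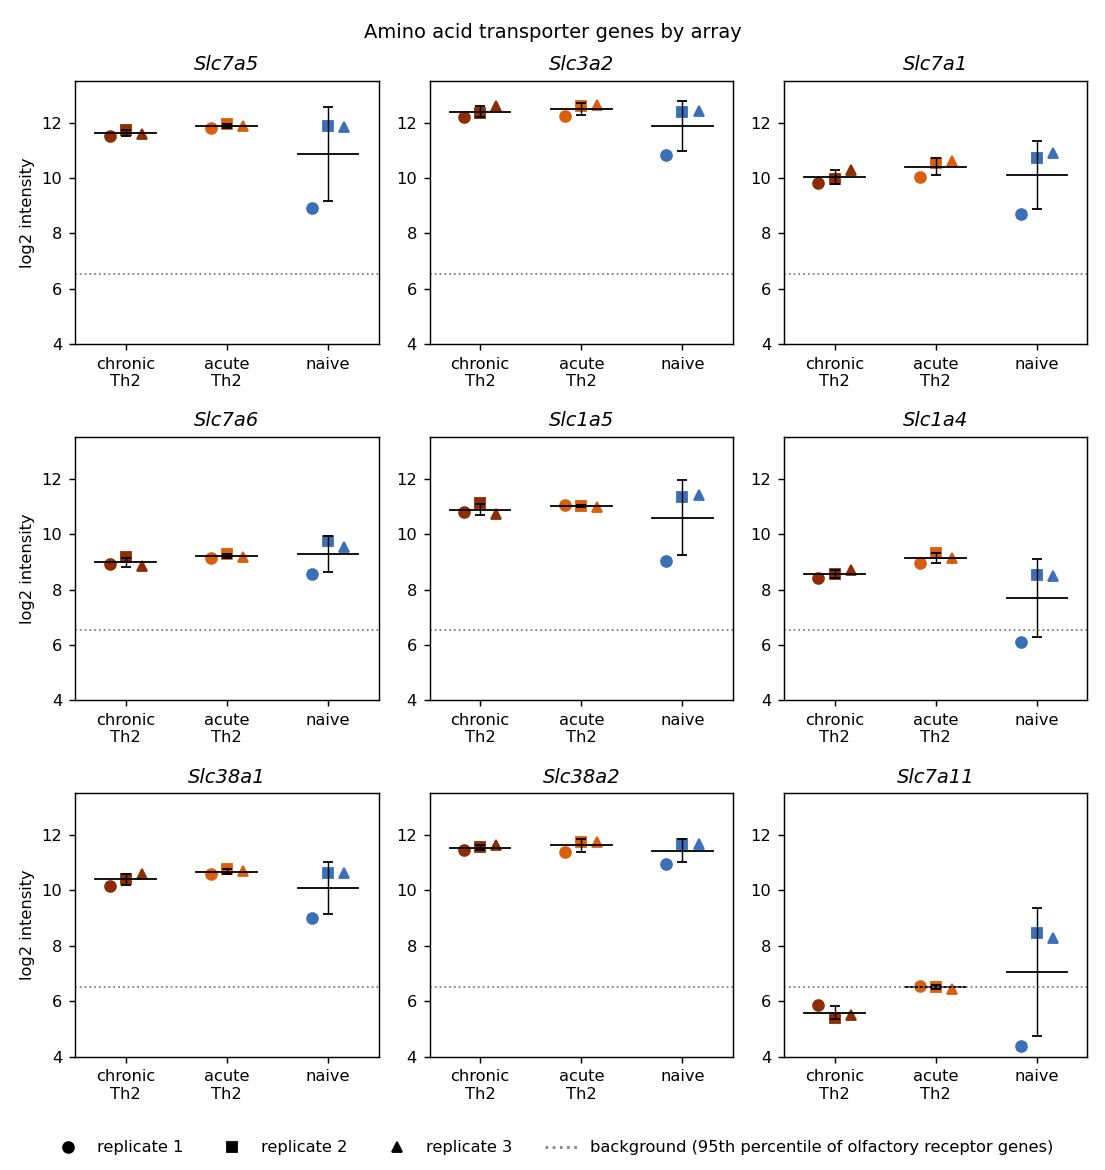
Log2 intensity (vertical axis) of each of the 9 transporter genes on every array, by group, with the group mean (bar) and SD (whisker, n = 3) and the background level of 6.53 dotted. Naive replicate 1 (circle) is the lowest array of its panel for every gene, and Slc7a11 alone has Th2 levels around or below the background.

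Slc7a5, the light chain LAT1, and Slc3a2, the heavy chain CD98, were near the same level in naive replicates 2 and 3 as in Th2 cells. Slc7a5 (probe set 10582275) had levels of 11.50, 11.73 and 11.60 in chronic Th2 cells and 11.80, 11.93 and 11.87 in acute Th2 cells, against 8.93, 11.86 and 11.84 in naive cells. Naive replicate 1 alone was low, and the acute and chronic arrays did not overlap. Slc7a5 was 0.99 higher in acute Th2 than in naive cells with all arrays (SE 0.67, adjusted p = 0.574) and 0.74 higher in chronic Th2 cells (SE 0.67, adjusted p = 0.497), neither of which passed. The Slc7a5 difference without naive replicate 1 was 0.02 in acute (SE 0.10, 95% interval -0.20 to 0.24, adjusted p = 0.967) and -0.24 in chronic Th2 cells (95% interval -0.46 to -0.02, adjusted p = 0.136). The chronic value thus changed sign, and the acute one spanned at most 0.24 on either side of 0. Slc3a2 (probe set 10465772) had levels of 12.21, 12.35 and 12.60 in chronic Th2 cells and 12.24, 12.59 and 12.63 in acute Th2 cells, against 10.82, 12.37 and 12.42 in naive cells. The groups overlapped except for naive replicate 1. Its differences were 0.61 in acute (adjusted p = 0.532) and 0.51 in chronic Th2 cells (adjusted p = 0.408) with all arrays. They were 0.08 in acute (adjusted p = 0.865) and -0.01 in chronic Th2 cells (adjusted p = 0.967) without naive replicate 1.

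The cationic and exchange carriers Slc7a1 and Slc7a6 were lower in chronic Th2 cells than in naive replicates 2 and 3. Slc7a1, the arginine carrier CAT1 (probe set 10535852), had levels of 9.82, 9.95 and 10.30 in chronic Th2 cells and 10.05, 10.54 and 10.61 in acute Th2 cells, against 8.71, 10.74 and 10.91 in naive cells. All 6 Th2 arrays lay under naive replicates 2 and 3 and above naive replicate 1. Without that array Slc7a1 fell in chronic Th2 cells by 0.80 (1.74-fold lower, SE 0.19, adjusted p = 0.0221), and its difference in acute Th2 cells was -0.43 (adjusted p = 0.240). With all arrays the Slc7a1 differences were -0.09 in chronic (adjusted p = 0.921) and 0.28 in acute Th2 cells (adjusted p = 0.888). Slc7a6, the exchanger y+LAT2 (probe set 10574985), had levels of 8.92, 9.17 and 8.87 in chronic Th2 cells and 9.14, 9.28 and 9.19 in acute Th2 cells, against 8.56, 9.75 and 9.55 in naive cells. Both Th2 groups lay between naive replicate 1 and the other naive arrays. Slc7a6 fell by 0.67 in chronic Th2 cells (1.59-fold lower, SE 0.12, adjusted p = 0.00527) and by 0.45 in acute Th2 cells (1.36-fold lower, SE 0.12, adjusted p = 0.0394) without naive replicate 1. With all arrays the same differences were -0.30 in chronic (adjusted p = 0.490) and -0.08 in acute Th2 cells (adjusted p = 0.943).

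The neutral amino acid carriers Slc1a5 and Slc1a4, closely related proteins, had opposite signs in acute Th2 cells once naive replicate 1 was left out. Slc1a5, the glutamine carrier ASCT2 (probe set 10550332), had levels of 10.80, 11.11 and 10.73 in chronic Th2 cells and 11.04, 11.01 and 10.98 in acute Th2 cells, against 9.02, 11.36 and 11.42 in naive cells. Th2 levels lay below both higher naive arrays. Slc1a5 fell in chronic Th2 cells by 0.51 without naive replicate 1 (1.42-fold lower, SE 0.12, adjusted p = 0.0195), and its difference in acute Th2 cells was -0.38 (adjusted p = 0.0793). With all arrays Slc1a5 differed by 0.28 in chronic (adjusted p = 0.761) and 0.41 in acute Th2 cells (adjusted p = 0.834), with the opposite sign. Slc1a4, the serine and alanine carrier ASCT1 (probe set 10384539), had levels of 8.42, 8.57 and 8.71 in chronic Th2 cells and 8.96, 9.33 and 9.14 in acute Th2 cells, against 6.09, 8.52 and 8.48 in naive cells. The acute arrays were the highest and overlapped with neither other group, and the chronic arrays overlapped with naive replicates 2 and 3. Slc1a4 was the 1 member of 9 whose arrays did not overlap between acute Th2 and naive cells with all arrays (higher), where 8.8% of genes were so. It differed by 1.44 (95% interval 0.17 to 2.72, adjusted p = 0.233). Slc1a4 rose by 0.64 in acute Th2 cells without naive replicate 1 (1.56-fold, SE 0.13, adjusted p = 0.0120). In chronic Th2 cells its difference from naive cells was 0.06 without that array (adjusted p = 0.773) and 0.87 with it (adjusted p = 0.346).

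The sodium-coupled carriers of small neutral amino acids, Slc38a1 and Slc38a2, did not pass in any of the comparisons by their representative probe sets. Slc38a2, SNAT2 (probe set 10431894), had levels of 11.44, 11.57 and 11.62 in chronic Th2 cells and 11.37, 11.76 and 11.76 in acute Th2 cells, against 10.96, 11.68 and 11.66 in naive cells. Its differences from naive cells lay within 0.20 of 0 both with and without naive replicate 1. Slc38a1, SNAT1, had levels by probe set 10431874 of 10.17, 10.41 and 10.60 in chronic Th2 cells and 10.57, 10.76 and 10.69 in acute Th2 cells, against 9.01, 10.62 and 10.63 in naive cells. Its differences from naive cells were 0.59 in acute (adjusted p = 0.553) and 0.31 in chronic Th2 cells (adjusted p = 0.625) with all arrays. Without naive replicate 1 they were 0.05 (adjusted p = 0.914) and -0.23 (adjusted p = 0.261). The other probe set of Slc38a1, 10431872, had levels of 6.26, 6.77 and 7.05 in chronic Th2 cells and 6.54, 7.31 and 7.15 in acute Th2 cells, against 5.12, 8.23 and 7.66 in naive cells. Here both Th2 groups lay under naive replicates 2 and 3, which the first probe set showed for the chronic arrays only. Levels of this probe set were near the background of 6.53. Chronic Th2 replicate 1 and naive replicate 1 were under it, and acute Th2 replicate 1 was just above it. With each probe set tested by itself and without naive replicate 1, this one fell by 1.25 in chronic Th2 cells (SE 0.29, adjusted p = 0.0192), and its difference in acute Th2 cells was -0.95 (SE 0.29, adjusted p = 0.0731). Without naive replicate 1 the probe sets of Slc38a1 thus had the same sign but unlike sizes in chronic Th2 cells, and opposite signs in acute Th2 cells. Which transcripts each one reads was not tested.

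Slc7a11, the cystine and glutamate exchanger xCT, had the largest measured difference of the 9 from naive cells in either Th2 group without naive replicate 1. With all arrays 4 members, Slc1a4, Slc7a5, Slc3a2 and Slc38a1, differed more in acute Th2 cells. Slc7a11 (probe set 10498024) had levels of 5.85, 5.39 and 5.51 in chronic Th2 cells and 6.56, 6.52 and 6.43 in acute Th2 cells, against 4.38, 8.47 and 8.30 in naive cells. Naive replicates 2 and 3 were the only arrays clearly above the background of 6.53, all chronic arrays lay below it, and 1 of 3 acute arrays lay just above it. Once naive replicate 1 was left out, Slc7a11 fell by 2.80 in chronic (SE 0.14, adjusted p = 3.61e-06) and fell by 1.88 in acute Th2 cells (SE 0.14, adjusted p = 4.33e-05). Because the Th2 levels are around background, the size of the change is known only as a bound. With each Th2 array raised to at least the background Slc7a11 was at least 3.62-fold lower in chronic and at least 3.59-fold lower in acute Th2 cells. With all arrays the differences were -1.47 in chronic (95% interval -3.56 to 0.63, adjusted p = 0.334) and -0.55 in acute Th2 cells (95% interval -2.64 to 1.55, adjusted p = 0.877). Naive replicate 1, with the lowest Slc7a11 level of all 9 arrays, widened these intervals.

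**Figure D3:**
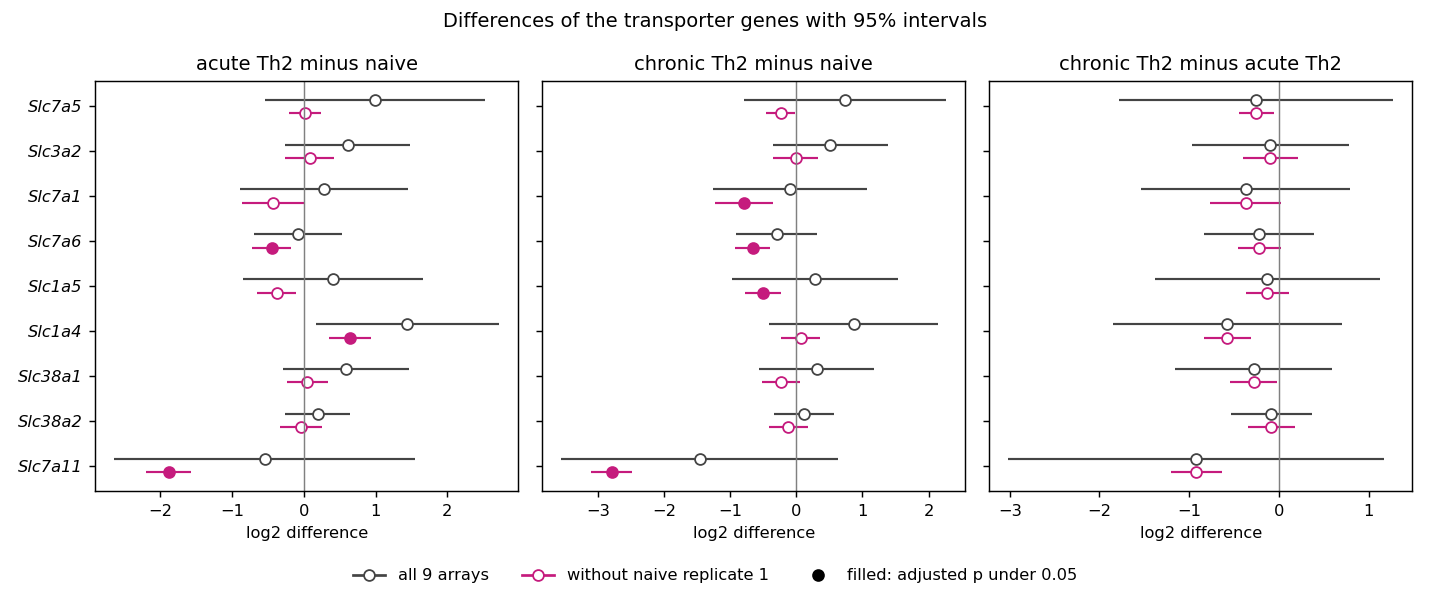
Log2 difference (horizontal axis) of each transporter gene with its 95% interval in acute Th2 minus naive, chronic Th2 minus naive and chronic Th2 minus acute Th2, with all 9 arrays (grey) and without naive replicate 1 (pink). Filled points passed at an adjusted p under 0.05: with all arrays there are 0, and without naive replicate 1 there are 3, 4 and 0.

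Between both Th2 groups, all 9 members had lower means in chronic than in acute Th2 cells, and 0 of 9 passed by limma, with 0 at an unadjusted p under 0.05. Of all genes 0.0301% were called in this comparison, and of the 9815 genes with a mean above background 68.51% had a difference below 0, so a negative sign was common among bright genes. The median difference was -0.25 over the 9 members and -0.11 over those 9815 genes. Slc7a11 had the largest difference, -0.92 (SE 0.92, adjusted p = 0.604), and both of its group means lay under background. Next came Slc1a4 with -0.58 (SE 0.56, adjusted p = 0.594) and Slc7a1 with -0.37 (SE 0.51, adjusted p = 0.707). The smallest were Slc3a2 with -0.10 (adjusted p = 0.907) and Slc38a2 with -0.08 (adjusted p = 0.835). The chronic and acute arrays of 3 members (Slc7a5, Slc1a4 and Slc7a11) did not overlap, all lower in chronic Th2 cells, where 10.8% of all genes, dim ones included, did so. That share among genes above background was not computed. Leaving out naive replicate 1 keeps these differences and changes only the estimate of the spread. Then 0 of 9 passed, where 0.0602% of all genes were called, and the adjusted p was 0.0557 for Slc7a11 and 0.10 for Slc1a4. An unadjusted p under 0.05 was reached by 4 of 9. Slc38a1 had the largest p of these 4 and ranked 3471 by p among 19937 genes, so such p-values were common among all genes. With naive replicate 1 and chronic Th2 replicate 3 both left out, Slc1a4 (-0.65, adjusted p = 0.0340) and Slc7a11 (-0.88, adjusted p = 0.0252) passed as lower in chronic Th2 cells, where 5.45% of all genes were called. The chronic arrays left in that fit, replicates 1 and 2, are those with the higher background intensity. With all arrays kept but weighted, Slc7a1 (-0.59, adjusted p = 0.0490) and Slc7a11 (-0.95, adjusted p = 0.050) passed, where 33.7% of all genes were called, a larger share than 2 of 9. The background intensity was higher in chronic Th2 replicates 1 and 2, as given above, and its part in these differences was not tested. Comparisons with naive cells share the naive arrays, so their values for a member are not independent.

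The median correlation among the 9 genes was lower without naive replicate 1, while some pairs, such as Slc7a6 and Slc1a5, were higher. Over all 9 arrays the 36 pairs had Pearson correlations of 0.48 (Slc1a4 and Slc7a11) to 0.98 (Slc7a5 and Slc38a1), with a median of 0.88, and 36 of 36 were positive. Over the 8 arrays without naive replicate 1, 30 of 36 were positive and the median was 0.58. There they ran from -0.24 (Slc1a5 and Slc1a4) to 0.94 (Slc7a6 and Slc1a5). Slc7a5 and its partner Slc3a2 correlated at 0.97 over 9 arrays and at 0.39 over 8. These values describe arrays of 3 groups that share a normalization, and group differences enter into them.

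**Figure D4:**
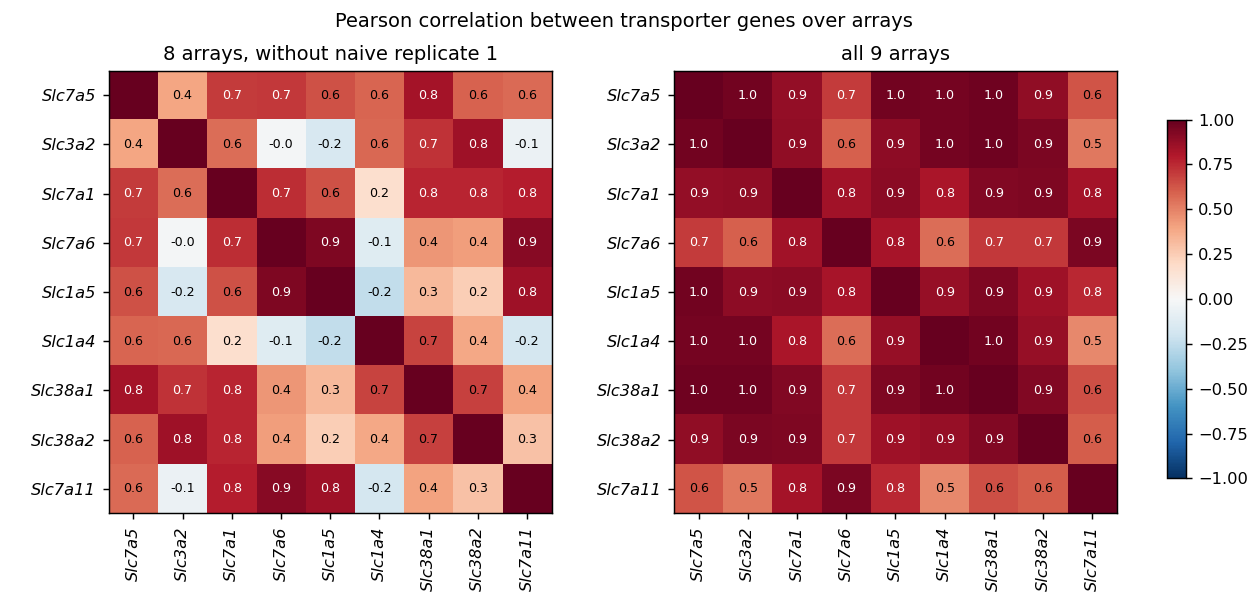
Pearson correlation of the log2 levels of each pair of transporter genes, over 8 arrays without naive replicate 1 (left) and over all 9 arrays (right), coloured from blue (-1) to red (1). With all arrays 36 of 36 pairs are positive, and without naive replicate 1 there are 30, with Slc1a4 and Slc3a2 near or below 0 against Slc7a6, Slc1a5 and Slc7a11.

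The genes most like Slc7a5 over 9 arrays, among 3560 genes above background with a range of at least 1 log2 unit, were Clic4 (r = 0.997), Mthfd2 (0.993), Shmt2 (0.993), Psat1 (0.992) and Bcat1 (0.992). Mthfd2 and Shmt2 encode enzymes of mitochondrial one-carbon metabolism, Psat1 one of serine synthesis and Bcat1 the cytosolic transaminase of branched-chain amino acids. Like Slc7a5, each of these genes was lowest on naive replicate 1. Mthfd2, Shmt2, Psat1 and Bcat1 had levels of 7.972, 8.188, 7.627 and 6.675 there. In naive replicate 2 they had 10.997, 11.185, 10.961 and 10.658. Over 8 arrays the genes most like Slc7a5 were Clic4 (0.985), Fbxl6 (0.972), Nudt5 (0.962), Phf12 (0.951) and Arhgap9 (0.941). Clic4 alone was in both groups of 5, and Mthfd2, Shmt2, Psat1 and Bcat1 were in the group over 9 arrays only. Slc7a11 was most like Nsun2 (0.982), Gnl3 (0.977), Ifrd2 (0.977), Ndufaf4 (0.976) and Srm (0.975) over 9 arrays, among 3561 genes. Over 8 arrays its nearest were Taf5l (0.989), Ecm1 (0.987), Bid (0.986), St6galnac4 (0.985) and Rxylt1 (0.985), none of them among those over 9.

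Other transporters of amino acids at the plasma membrane were mostly dim, with 7 of 30 above background by their mean. In acute Th2 cells 1 of 30 passed as higher and 0 as lower, and in chronic Th2 cells 1 was higher and 1 lower. Slc7a8, which encodes LAT2, another light chain that pairs with CD98, had levels of 7.56, 7.72 and 7.34 in chronic Th2 cells and 7.13, 6.77 and 6.90 in acute Th2 cells, against 5.96, 5.95 and 6.09 in naive cells. All naive arrays, replicate 1 included, lay below background and below every Th2 array. Slc7a8 rose in intensity by 1.54 in chronic (adjusted p = 0.000162) and by 0.94 in acute Th2 cells (adjusted p = 0.00294), and by 1.52 and 0.92 without naive replicate 1. Slc16a10, the aromatic amino acid carrier TAT1, fell by 0.89 in chronic Th2 cells (adjusted p = 0.0331), with a chronic mean of 6.04 that is under background. Slc7a3, the arginine carrier CAT3, passed only without naive replicate 1, where it rose by 0.75 in acute Th2 cells (adjusted p = 0.00551). Its levels were 8.68, 8.26 and 8.46 in chronic Th2 cells and 9.26, 9.43 and 9.38 in acute Th2 cells, against 6.21, 8.67 and 8.54 in naive cells. Like Slc1a4, Slc7a3 was thus highest in acute Th2 cells. Slc6a9, the glycine carrier GlyT1, fell by 0.68 in chronic Th2 cells without that array (adjusted p = 0.00776), and its level in naive replicate 1 was 6.96, against 10.11 and 10.17. The counts of the 30 without naive replicate 1 were 2 higher and 1 lower in acute Th2 cells, and 1 higher and 2 lower in chronic Th2 cells.

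Of 11 transporters of lysosomes and other inner membranes, 2 rose and 0 fell in either Th2 group. Slc15a3, which exports histidine and small peptides from lysosomes, had levels of 8.93, 8.78 and 9.35 in chronic Th2 cells and 8.95, 9.66 and 9.33 in acute Th2 cells, against 5.96, 6.44 and 6.34 in naive cells. The naive arrays were all below background and far under the Th2 arrays. Slc15a3 rose in intensity by 2.78 in chronic (adjusted p = 0.000129) and by 3.07 in acute Th2 cells (adjusted p = 6.92e-05). Slc36a4, an amino acid carrier of the PAT family, had levels of 8.27, 8.80 and 8.15 in chronic Th2 cells and 8.46, 8.15 and 8.40 in acute Th2 cells, against 6.97, 7.32 and 6.72 in naive cells. It rose by 1.40 in chronic (adjusted p = 0.00422) and by 1.33 in acute Th2 cells (adjusted p = 0.00571). Both passed without naive replicate 1 as well, where Slc15a4, a related peptide carrier, fell by 0.42 in chronic Th2 cells (adjusted p = 0.0348).

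**Figure D5:**
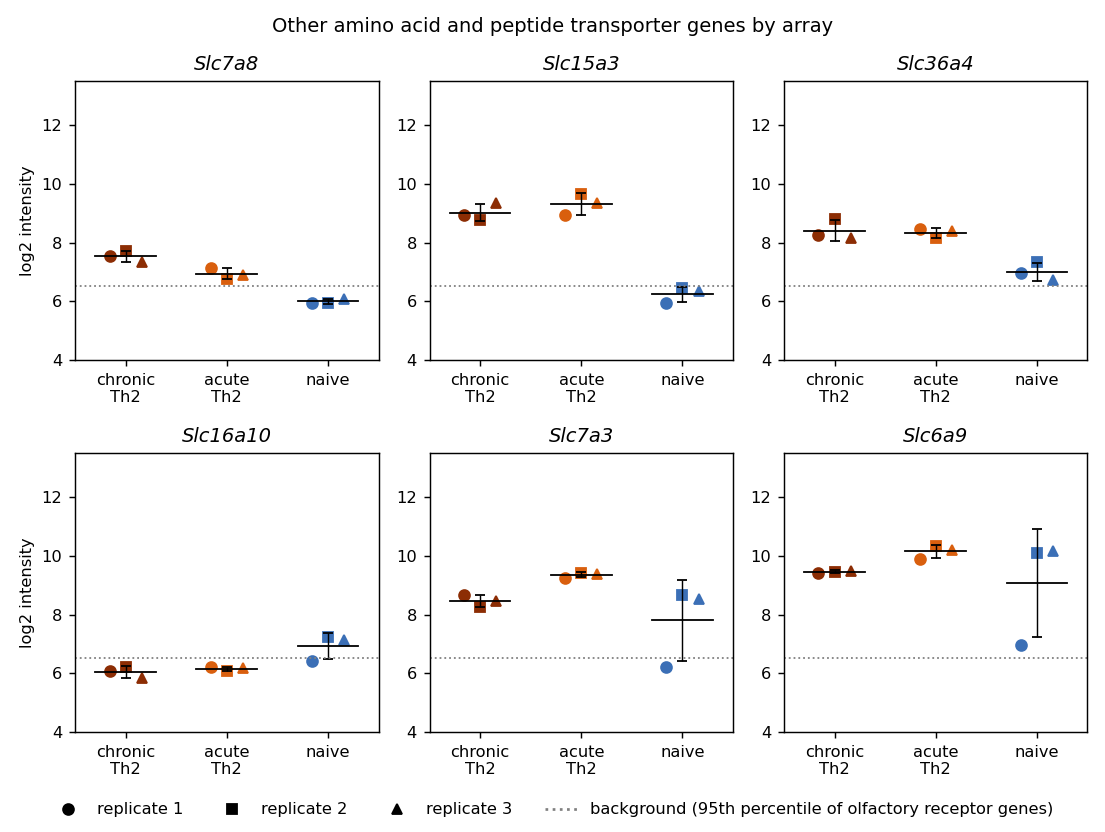
Log2 intensity (vertical axis) on every array of 6 further transporter genes that passed in some comparison, with group mean (bar), SD (whisker, n = 3) and the background level of 6.53 dotted. Slc7a8, Slc15a3 and Slc36a4 are higher on every Th2 array than on every naive array, whereas Slc7a3 and Slc6a9 are low in naive replicate 1 alone.

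Genes that act with the transporters were counted by list. Over these lists and the further transporters, 26 genes passed in acute and 28 in chronic Th2 cells against naive cells, and 26 and 28 of them also passed without naive replicate 1. With another array left out as few as 19 and 17 passed, although no difference moved by over 1.5 times. The calls lost in some such fit were those of Sesn1, Psph, Smox, Nqo1, Hmox1, Hif1a and Tbx21 in acute Th2 cells, and of Sesn1, Slc16a10, Mtor, Rptor, Fnip2, Tsc2, Got2, Sat1, Hif1a, Tbx21 and Cd83 in chronic Th2 cells. Among 31 genes of amino acid sensing by mTORC1, 1 rose and 1 fell in acute Th2 cells, and 2 rose and 4 fell in chronic Th2 cells. Sesn1, a leucine-responsive inhibitor of the pathway, fell by 1.75 in chronic (adjusted p = 0.0172) and fell by 1.52 in acute Th2 cells (adjusted p = 0.0345). Lamtor3, a subunit of the Ragulator complex on the lysosome, rose by 0.42 (adjusted p = 0.0127) and 0.62 (adjusted p = 0.00181) in the same groups. Fnip2, which acts with folliculin on the Rag GTPases, rose by 0.67 in chronic Th2 cells (adjusted p = 0.0496). Mtor itself fell by 0.46 in chronic Th2 cells (adjusted p = 0.0277), and Rptor, its partner Raptor, fell by 0.41 (adjusted p = 0.0408). The mTORC1 list without naive replicate 1 had 4 higher and 1 lower in acute, and 3 higher and 5 lower in chronic Th2 cells.

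In the amino acid response list of ATF4 and its targets, 2 of 21 rose in acute and 0 in chronic Th2 cells, with 0 lower in either. The 2 were Nupr1, a stress-induced chromatin protein (1.64, adjusted p = 0.00282), and Psph, the last enzyme of serine synthesis (0.90, adjusted p = 0.0496). Asns, asparagine synthetase, had levels of 11.93, 12.05 and 11.81 in chronic Th2 cells and 12.04, 12.12 and 12.07 in acute Th2 cells, against 5.97, 10.75 and 10.33 in naive cells. Asns was higher on every Th2 array than on any naive array, but with all arrays its differences of 2.91 (adjusted p = 0.130) and 3.06 (adjusted p = 0.167) did not pass. Atf3, an ATF4-induced transcription factor, differed by 2.09 in chronic Th2 cells (adjusted p = 0.107). Asns rose by 1.39 without naive replicate 1 in chronic (adjusted p = 0.000175) and by 1.54 in acute Th2 cells (adjusted p = 0.000107). The ATF4 list then had 5 higher and 0 lower in acute, and 2 higher and 2 lower in chronic Th2 cells. Against naive replicates 2 and 3, Asns was thus higher and Slc7a11 lower on the same Th2 arrays.

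Enzymes that use the transported amino acids differed in part. Of 13 glutamine and glutamate genes, 3 rose and 0 fell in either Th2 group. They were Got1 (1.71 in chronic and 1.89 in acute Th2 cells), Glud1 (0.95 and 1.16) and Got2 (0.53 and 0.78), which convert glutamate to 2-oxoglutarate. Leaving out naive replicate 1 gave also 4 lower in chronic and 3 in acute Th2 cells. Ctps (-1.31 and -0.83), Ppat (-1.16 and -0.87) and Pfas (-0.56 and -0.43), which use glutamine to make nucleotides, were among both. Of 9 genes of branched-chain amino acid breakdown 0 passed, with 1 at an unadjusted p under 0.05 in each comparison. Bcat1 differed by 0.72 in chronic and 1.29 in acute Th2 cells and Ivd by -0.40 and -0.39, and without naive replicate 1 Bcat1 fell by 0.57 in chronic Th2 cells (adjusted p = 0.00475). Of 14 arginine and polyamine genes, Smox, which oxidises spermine, rose by 2.16 in acute Th2 cells (adjusted p = 0.0386) and Sat1, which acetylates spermidine and spermine, fell by 0.57 in chronic Th2 cells (adjusted p = 0.0464). With naive replicate 1 left out, 1 rose and 4 fell in chronic Th2 cells, with 1 and 2 in acute Th2 cells. Srm, spermidine synthase, was among those lower in both (-1.25 and -0.93).

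The cystine that xCT brings in supplies cysteine for glutathione. Of 15 glutathione and cystine genes measured, 2 rose in chronic and 4 in acute Th2 cells, and 0 fell. Srxn1, sulfiredoxin, rose by 2.22 in chronic (adjusted p = 0.000518) and by 2.18 in acute Th2 cells (adjusted p = 0.000569). Gsr, glutathione reductase, rose by 0.59 (adjusted p = 0.00632) and 1.00 (adjusted p = 0.000330). Nqo1 (1.03) and Hmox1 (2.57), further NRF2 targets, passed in acute Th2 cells, with Nqo1 means under background in all groups. Without naive replicate 1 there were 3 higher and 2 lower in chronic and 5 higher and 0 lower in acute Th2 cells. Gclm, the regulatory subunit of the enzyme that starts glutathione synthesis, fell there by 0.74 in chronic Th2 cells (adjusted p = 0.0149). Of 7 glucose and monocarboxylate carriers, Slc2a6 rose (1.16 in chronic and 1.28 in acute Th2 cells) and Slc2a3 fell (-0.82 and -0.74), and Slc16a1, the lactate carrier MCT1, fell without naive replicate 1 (-1.65 and -1.15).

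Of 11 regulators of transporter genes, 3 rose and 0 fell in either Th2 group, namely Batf (2.30 in chronic and 2.54 in acute Th2 cells), Rora (1.83 and 2.26) and Hif1a (1.39 and 1.38). Myc, which drives many of the transporter genes in stimulated T cells, had levels of 11.26, 11.12 and 10.74 in chronic Th2 cells and 11.32, 11.41 and 11.10 in acute Th2 cells, against 10.19, 12.15 and 12.19 in naive cells. All its Th2 arrays lay between naive replicate 1 and the other naive arrays, as they did for Slc7a1, Slc7a6, Slc1a5 and Slc7a11, and the part of Myc in the transporter levels was not tested. Myc fell by 1.13 in chronic Th2 cells without naive replicate 1 (adjusted p = 0.00154) and by 0.89 in acute Th2 cells (adjusted p = 0.00620), and the regulators had 4 higher and 4 lower in chronic, and 4 higher and 3 lower in acute Th2 cells. Of 29 stimulation-induced genes 6 rose and 1 fell in chronic, and 5 rose and 1 fell in acute Th2 cells, led by the costimulatory receptor gene Icos (4.0 and 3.69). Ier3 (2.36 and 1.84), Cd44 (1.89 and 1.93) and Ifng (1.79 and 1.98) rose in both, Cd83 rose in chronic Th2 cells (2.45), and Dusp2, a phosphatase gene, was lower in both (-1.65 and -1.70). The counts without naive replicate 1 were 10 higher and 11 lower, and 10 higher and 8 lower.

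Between both Th2 groups 0 genes passed by limma in any of these lists with all 9 arrays, with 0 to 6 genes of a list at an unadjusted p under 0.05, and 1 gene passed without naive replicate 1 (Psph, -0.70, adjusted p = 0.0490). The genes of each list that differed most are given as values only, as chronic minus acute Th2 cells with all arrays. Among plasma membrane carriers they were Slc7a3 (-0.89) and Slc6a9 (-0.69), and among lysosomal ones Slc7a14 (0.35, under background in both groups) and Slc15a3 (-0.29). Sesn2 (-0.73) and Tbc1d7 (-0.43, under background in both groups) led the mTORC1 list, and Cth (-1.08), which makes cysteine from cystathionine, and Nupr1 (-1.02) the ATF4 list. In the metabolic lists these were Gpt2 (-0.83) and Aldh18a1 (-0.51) for glutamate, Bcat1 (-0.58) and Dbt (-0.42) for branched-chain amino acids, and Arg1 (-0.63) and Smox (-0.43) for arginine. Hmox1 (-1.11) and Nqo1 (-0.51, under background in both groups) led the glutathione list, and Slc16a1 (-0.50) and Slc2a1 (-0.45) the sugar and monocarboxylate carriers. Rora (-0.43) and Bhlhe40 (-0.35) led the regulators, and Il2 (-1.35) and Cd40lg (-1.06) the stimulation-induced genes. Single arrays decide some of these sizes. Arg1 was at 8.45 in acute Th2 replicate 1 and at 6.86 and 6.58 in the other acute arrays, and its difference was -0.049 without replicate 1. Without chronic Th2 replicate 3, Il2 differed by -2.10, Bhlhe40 by -0.74, Rora by -0.69 and Slc15a3 by -0.46. Without chronic Th2 replicate 2 they were smaller, at -0.72 for Il2, -0.18 for Bhlhe40, -0.28 for Rora and -0.17 for Slc15a3. In all, 7 of the 22 differences moved by over 1.5 times when 1 Th2 array was left out, those of Slc7a14 and Nqo1 being the other two. All of these but Slc7a14 were lower in chronic Th2 cells, as were all 9 members and 68.51% of genes above background.

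Markers of other cells moved with some groups. Of 10 regulatory T cell genes, with Il2ra and Tnfrsf18 of the stimulation-induced list among them, 7 rose in either Th2 group. Their summed log2 levels were 101.0 to 102.0 in chronic Th2 cells and 101.2 to 103.1 in acute Th2 cells, against 77.5 to 81.5 in naive cells. Foxp3, their lineage factor, rose by 1.13 in chronic and by 1.41 in acute Th2 cells. Of 6 genes of group 2 innate lymphoid cells, 4 rose in either group (Gata3, Klrg1, Id2 and Rora), all of which Th2 cells can express, with sums of 54.5 to 54.9 in chronic and 55.2 to 55.8 in acute Th2 cells, against 43.5 to 44.7 in naive cells. The part of such cells in the transporter levels was not tested. Of 8 naive and homing genes, 3 fell in chronic and 4 in acute Th2 cells, and of 3 sort markers Cd44 rose in both (1.89 and 1.93), while Cd69 (-1.09 and -0.51) and Cd4 (-0.19 and 0.35) did not pass. Without naive replicate 1 Cd69 was lower in both (-1.61, adjusted p = 0.00462, and -1.02, adjusted p = 0.0443), and Cd4 was higher in acute Th2 cells (0.77, adjusted p = 0.000537). In that fit 8 regulatory T cell genes were higher in either Th2 group and 1 was lower in chronic Th2 cells, 4 innate lymphoid genes were higher in either, and 5 naive and homing genes were lower in either, with 1 higher in chronic Th2 cells. T cell defining genes (6), neutrophil (8), NK cell (6), CD8 T cell (2), dendritic cell (8), macrophage or monocyte (11), erythroid or platelet (4) and stromal or endothelial (9) genes had 0 calls by limma in either comparison with naive cells, with 0 to 3 genes of a list at an unadjusted p under 0.05. Without naive replicate 1 the T cell defining genes had 2 higher in chronic and 3 higher in acute Th2 cells, and the other 7 lists again had 0 calls. Single genes passed among 5 eosinophil genes (Ccr3, higher in both), and in chronic Th2 cells among 7 mast cell and basophil genes (Gata2, higher), 10 lung epithelium genes (Sftpa1, higher) and 7 B cell genes (Cd79a, lower by 0.61, adjusted p = 0.0459, and 0.0536 without naive replicate 1). By their mean over all arrays 0 of 8 neutrophil genes were above background, against 4 of 9 stromal or endothelial genes (Pecam1, Col1a1, Col1a2 and Col3a1), 2 of 11 macrophage genes (Cd68 and Siglecf), 2 of 10 epithelial genes (Sftpa1 and Krt8) and 1 of 7 B cell genes (Cd79b). In the CD8 T cell, NK cell, dendritic cell, eosinophil, mast cell and erythroid lists 1 gene each was above it. Cd79a, Lyz2, Csf1r, Epx, Sftpc and Cdh5 were under it in every group.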

How the data were processed

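RNA of 9 samples was measured on Affymetrix arrays. The authors deposited log2 intensities, 1 for each array and probe set, which they had normalised with RMA, per the submitters' processing notes, which also name limma. The sources used here give no versions, build or filters. Values were used as they are, with 0 columns left out. Of 34760 probe sets, 21640 are listed with 1 gene, 1321 with several (not used) and 11799 with none. A gene was represented by its probe set with the highest mean, which gave 19937 genes.

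Groups were taken from titles. R 4.3.3 with limma 3.58.1 fitted group means over all genes and 9 arrays with no further covariate (moderated two-sided test), with Benjamini-Hochberg adjustment per comparison. SE is that of the moderated test, and intervals are 95% intervals of it. No filter removed dim genes. An exact permutation test of 3 against 3 arrays cannot go below 0.1, so none was run. The fit was tested on simulated data whose spread was taken from the Th2 arrays alone, so that test does not cover the spread of the naive arrays. Figures were drawn with matplotlib 3.10.9.

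The members, 29 gene lists (333 symbols, 308 measured) and tests were chosen with earlier results of these data known. All 9 members are named, with up to 4 called genes of each list by size of difference. Where none passed, the 2 that differed most are given. Slc15a4, Rptor, Srm, Gclm, Ctps, Ppat, Pfas, Dusp2, Il5 and the genes set beside naive replicate 1 were added after their values were seen. Alternatives were fits of 2 groups, a replicate block, array weights, an intensity trend, quantile or median scaling, a filter on dim genes, other probe set rules, Holm adjustment, each array left out, and 2 arrays left out together. Leaving out each array for the genes of the other lists was added after seeing the data. Whether replicate numbers pair arrays was not settled by the correlations of deviations from the group means. Those of same-numbered arrays ran from -0.09 to 0.33 in acute Th2 minus naive and from 0.04 to 0.12 in chronic Th2 minus naive. In chronic Th2 minus acute Th2 they ran from -0.01 to 0.57. Differently numbered arrays gave -0.27 to 0.08, -0.26 to 0.16 and -0.56 to 0.44 in the same order.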

Additional observations from a re-analysis of the deposited data

How the results depend on the processing

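The counts of members called were 0 in all 3 comparisons under every alternative except array weights, the fit without naive replicate 1 and the fit without naive replicate 1 and chronic Th2 replicate 3, including the replicate block, which gave 0, 0 and 0. Array weights (20.2%, 23.4% and 33.7% of all genes called), which gave naive replicate 1 a weight of 0.17 and acute Th2 replicate 3 one of 8.23, called 2 in acute Th2 minus naive (Slc1a4 0.80, Slc7a11 -1.68), 2 in chronic Th2 minus naive (Slc7a6 -0.49, Slc7a11 -2.63) and 2 in chronic Th2 minus acute Th2 (Slc7a1 -0.59, Slc7a11 -0.95). Without both arrays named above, 3, 4 and 2 were called, where 13.2%, 23.4% and 5.45% of all genes were. Leaving out 1 array gave 0 to 3 in acute Th2 minus naive, 0 to 4 in chronic Th2 minus naive and 0 to 0 in chronic Th2 minus acute Th2, with all calls without naive replicate 1.

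Signs turned in few fits, and the cause was not tested. In some of them naive replicate 1 was left out or weighted down, and in others it was kept. Where naive replicate 2 or 3 was left out, naive replicate 1 made up a larger part of the naive mean. Without naive replicate 2, acute Th2 minus naive turned to 0.15 for Slc7a6 and to 0.17 for Slc7a11. Without naive replicate 3, chronic Th2 minus naive turned to 0.31 for Slc7a1. With array weights, acute Th2 minus naive was -0.14 for Slc7a1 and -0.27 for Slc1a5, chronic Th2 minus naive was -0.0023 for Slc7a5, -0.26 for Slc1a5, -0.13 for Slc38a1 and -0.069 for Slc38a2, and chronic Th2 minus acute Th2 was 0.0074 for Slc1a5. The mean of both probe sets gave Slc38a1 -0.0005 in chronic Th2 minus naive. Without naive replicate 1 and chronic Th2 replicate 3, acute Th2 minus naive was -0.43 for Slc7a1, -0.38 for Slc1a5 and -0.040 for Slc38a2, and chronic Th2 minus naive was -0.23 for Slc7a5, -0.12 for Slc3a2, -0.43 for Slc1a5, -0.010 for Slc1a4, -0.33 for Slc38a1 and -0.16 for Slc38a2, with -0.94 for Slc7a1, whose sign did not turn. With 1 array left out, acute Th2 minus naive ran from -0.43 to 0.68 for Slc7a1, -0.38 to 0.82 for Slc1a5, -0.040 to 0.33 for Slc38a2, -0.45 to 0.15 for Slc7a6 and -1.88 to 0.17 for Slc7a11. Chronic Th2 minus naive then ran from -0.80 to 0.31 for Slc7a1, -0.24 to 1.23 for Slc7a5, -0.01 to 0.79 for Slc3a2, -0.51 to 0.69 for Slc1a5, -0.23 to 0.58 for Slc38a1, -0.12 to 0.24 for Slc38a2 and 0.06 to 1.28 for Slc1a4, which kept its sign. Of 537 values under alternatives, pooled over the 3 comparisons, 485 kept direction and side of the threshold, and 32 were reversed. Most of these alternatives kept naive replicate 1 at full weight. The pooled count thus does not measure how far the comparisons with naive cells rest on that array.

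Over all genes, calls in acute Th2 minus naive, chronic Th2 minus naive and chronic Th2 minus acute Th2 (1171, 1571 and 6) became 4019, 4675 and 6721 with array weights, 762, 686 and 2 in fits of 2 groups, 166, 167 and 0 with Holm adjustment, 2624, 4665 and 1087 without both arrays, and 653 to 2424, 734 to 3438 and 0 to 12 with 1 array left out. Quantile scaling gave 800 higher and 599 lower in chronic Th2 minus naive, against 734 and 837 as deposited. Between both Th2 groups the intensity trend gave 3 and the replicate block 0. The filter on dim genes tested 9815 genes and left out Slc7a11, so 8 members remained in it. Signal over background limits Slc7a11, whose Th2 means are at or under 6.53, and 2 naive arrays limit each comparison without naive replicate 1.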
